A study of Homo sapiens with 9 samples.

Results

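The FOXO transcription factors and genes that insulin signalling holds down were followed as a set of 10 genes in TC-71, an established Ewing sarcoma cell line, and in 3 derivatives made resistant to drugs that target the IGF-1 receptor (IGF-1R). The set held the factors FOXO1, FOXO3 and FOXO4 and the genes TXNIP, SESN1, SESN3, CCNG2, BCL6, PIK3IP1 and CITED2. They were taken by name from 19775 genes with a probe set of their own on the array, and all 10 were among the 14172 genes kept after a filter on dim probe sets (at least 2 of 9 arrays at 5 or more on the log2 scale). Among the probe sets assigned to 1 gene alone, the brightest by its mean on all 9 arrays stood for the gene.

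TC-71 carried no selection and was hybridised as 3 samples of 1 array each. TC/AEW had been grown in rising amounts of NVP-AEW541, which blocks the kinase of IGF-1R, up to 5 µM. TC/AVE had been grown in the antibody AVE1642, up to 10 µg/ml, and TC/CP in the antibody figitumumab, for which no highest concentration was given in the sources used here. Selection lasted 6 months in one label and at least that long in another. The growth medium was IMDM with 10% fetal bovine serum, and each resistant line is a single line read on 2 technical replicate arrays, which were averaged into 1 sample. The design text calls the TC-71 samples biological replicates. Values of the lines are listed below in the order TC/AEW, TC/AVE, TC/CP. The 6 samples also differ by a year mark in the names of their raw array files. TC-71 sample 1 carries the first mark, TC-71 sample 2, TC/AEW and TC/AVE carry the second, and TC-71 sample 3 and TC/CP carry the third. What the mark stands for, hybridisation, extraction or culture, is not given in the sources used here. No TC-71 sample is labelled as kept in culture beside the lines during selection, so resistance and time in culture cannot be told apart.

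FOXO proteins are transcription factors that AKT phosphorylates when insulin or IGF-1 signals through PI3K. Phosphorylated FOXO is held in the cytoplasm by 14-3-3 proteins, so its targets fall when the pathway is active and rise when the pathway is blocked or cells are starved. Known targets slow the cell cycle, dampen PI3K and mTOR signalling, and adjust glucose uptake and the redox state. Control of FOXO activity is largely at the protein level, which RNA arrays do not read.

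Medians over all probe sets ran from 5.39 to 5.45 between arrays. Of 10 Ewing sarcoma markers, 9 had a probe set and all 9 were above 5 in every sample. They ran from CD99 (12.82 to 13.00) down to LIPI (5.23 to 7.45) and CCK (5.18 to 6.02), the last 2 no brighter than some markers of other cells below. Against the TC-71 sample of the same year mark, 2 of the 9 were lower in all 3 lines and 1 was higher. The lower ones were LIPI (-0.66, -1.25 and -2.13) and FCGRT (-0.67, -1.12 and -1.39), and the higher one was CD99 (0.13, 0.18 and 0.10). Of 6 blood and immune markers, 4 were under 5 in every sample, PTPRC (3.90 to 4.02) among them, and so were 2 of 4 epithelial markers, EPCAM (3.46 to 3.82) and CDH1 (3.66 to 4.09). The others in these lists were CD79A (6.32 to 6.79), HBB (5.74 to 6.02), KRT5 (5.23 to 5.46) and KRT19 (4.33 to 5.11). Of 3 endothelial markers, PECAM1 stood at 6.06 to 6.32, VWF at 4.88 to 5.23 and CDH5 at 3.35 to 3.62. The log2 levels of the 4 fibroblast markers, summed, ran from 23.2 in TC-71 sample 1 to 29.7 in TC/AEW. Most of this was LUM (3.55 and 8.36 in these samples), ahead of DCN (6.91 and 8.20), COL1A1 (7.56 and 7.87) and PDGFRA (5.21 and 5.31). In bulk samples, fewer cells expressing a gene and less RNA per cell cannot be told apart.

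None of the 10 genes passed the threshold, an adjusted p under 0.05 by limma over all genes, in any comparison with the 3 TC-71 samples. The threshold was passed by 0% of all genes in TC/AEW, 0% in TC/AVE, 0% in TC/CP and 0.0212% (3 genes) in the 3 lines in common. At an unadjusted p under 0.05, the members counted 0 in TC/AEW (3.52% of all genes), 1 in TC/AVE (7.23%), 0 in TC/CP (4.93%) and 0 in the lines in common (8.39%). The lowest adjusted p of a member was 0.647, for CITED2 in TC/AVE. The largest signal in the set lay elsewhere, in how far TXNIP and CCNG2 differed among the TC-71 samples themselves.

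**Figure D1:**
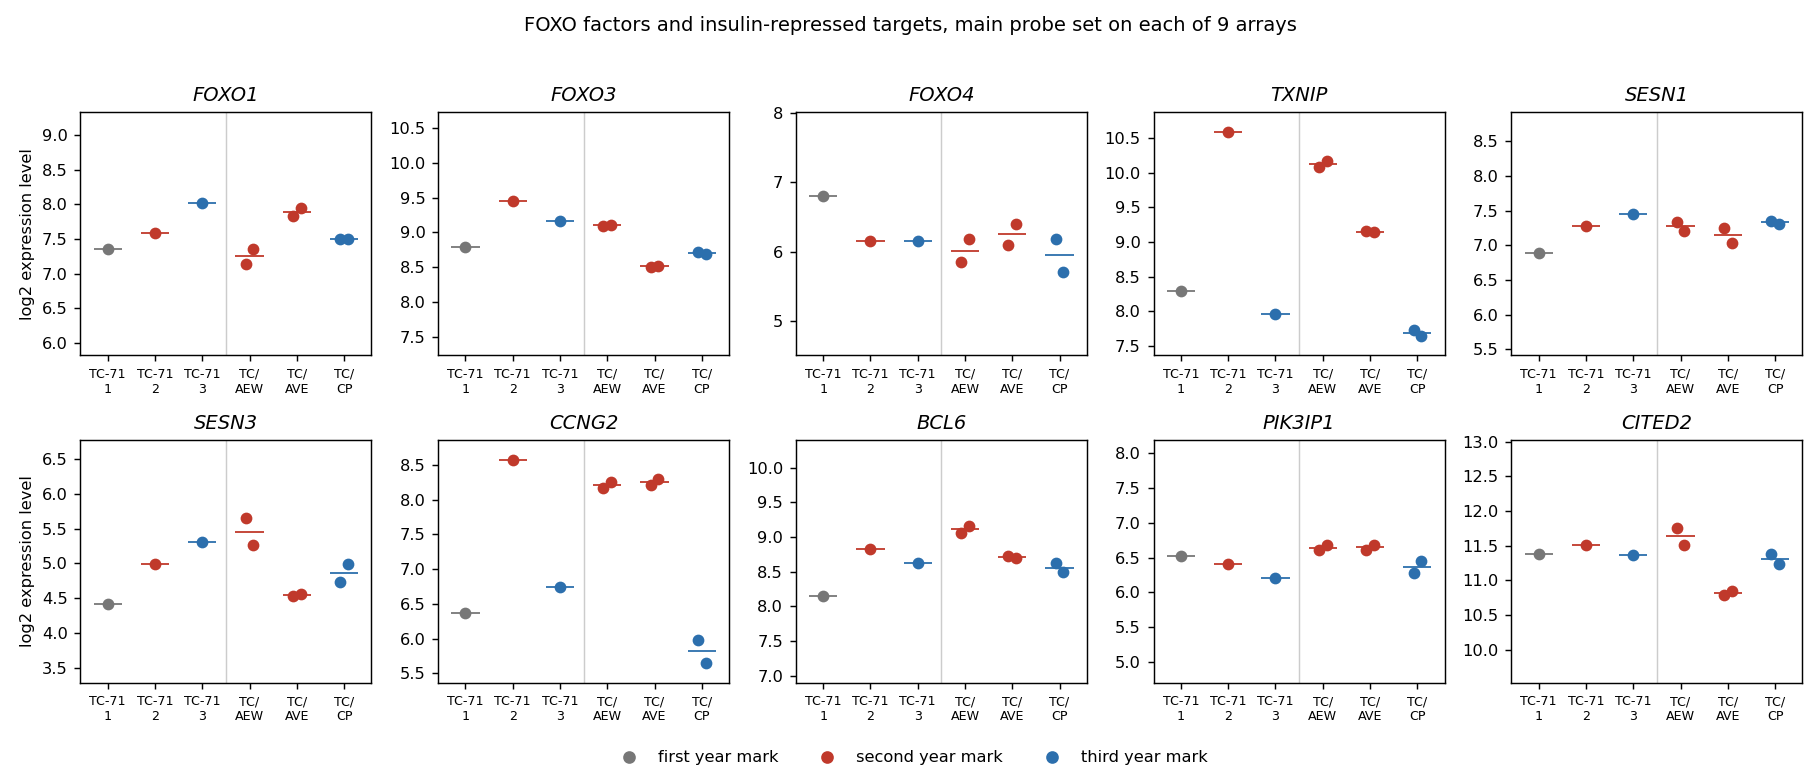
Log2 expression level of the 10 genes by sample, with 1 point per array, a bar at each sample's mean and colour by year mark; every panel spans 3.5 log2 units, centred on its own values. TXNIP and CCNG2 stand high in the 3 samples of the second year mark, resistant or not, and low in the other 3, while the other 8 genes span between 0.44 and 1.04 over the 6 samples.

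TXNIP encodes the thioredoxin-interacting protein, an arrestin-like protein that binds thioredoxin and lowers glucose uptake. Its promoter is a textbook meeting point of insulin and glucose signals, and it is printed here with that of CCNG2 because these members had the widest swings. Each window runs from 250 bases before to 50 after an annotated start site of RefSeq (GRCh38.p14), 5′ to 3′ on the gene's strand, with motif matches in capitals. The TXNIP window, at chr1:145996530-145996829 on the minus strand, is the upstream of 2 annotated for the gene. The CCNG2 window, at chr4:77156957-77157256 on the plus strand, is the only entry for that gene.
TXNIP: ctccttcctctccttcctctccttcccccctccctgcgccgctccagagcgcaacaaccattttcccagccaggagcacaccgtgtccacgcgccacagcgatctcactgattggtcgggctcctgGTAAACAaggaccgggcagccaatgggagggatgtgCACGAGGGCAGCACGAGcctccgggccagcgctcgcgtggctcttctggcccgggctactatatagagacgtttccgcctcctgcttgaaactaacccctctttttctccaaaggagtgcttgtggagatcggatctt
CCNG2: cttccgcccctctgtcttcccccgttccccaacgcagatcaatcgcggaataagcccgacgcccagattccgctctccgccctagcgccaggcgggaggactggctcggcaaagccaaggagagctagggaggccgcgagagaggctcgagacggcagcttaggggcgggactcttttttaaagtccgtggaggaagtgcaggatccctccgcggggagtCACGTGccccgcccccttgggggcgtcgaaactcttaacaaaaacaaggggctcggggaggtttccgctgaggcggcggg

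Both strands were searched for the FOXO element GTAAACA, the insulin response core CAAAACA, the E-box CACGTG, and a pair of CACGNG boxes 5 bases apart, the layout of a carbohydrate response element. The E-box letters are 1 of the forms that a CACGNG box can take, so these motifs overlap. In the TXNIP window GTAAACA began 124 bases before the start site and a CACGNG pair began 88 bases before it. In the CCNG2 window a CACGTG began 30 bases before the start site, and GTAAACA was not among its letters. Of 35116 windows in the RefSeq table, 3.42% held GTAAACA, 7.26% held CACGTG and 0.0570% (20 windows) held the pair. All 10 members had a window, 20 in all. GTAAACA was also found in a window of FOXO4, 24 bases after the start site, and of PIK3IP1, 17 bases after it on the opposite strand, and CACGTG in a window of CITED2, 153 bases before the start site. CAAAACA, held by 4.92% of all windows, was in 0 of the 20. These matches are letters, not measured binding.

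TXNIP (chromosome 1, 145992435 to 145996579, GRCh38.p14) stood at 8.29, 10.59 and 7.96 in TC-71 samples 1, 2 and 3, at 10.08 and 10.16 on the TC/AEW arrays, at 9.16 and 9.14 on the TC/AVE arrays and at 7.73 and 7.65 on the TC/CP arrays. TC-71 sample 2 was the highest of all, 6.19-fold above TC-71 sample 3, and TC/CP was below all 3 TC-71 samples. The SD over the 3 TC-71 samples was 1.43, larger than in 99.9% of all genes. Against the TC-71 mean (8.94 ± 1.43, SD, n = 3) the differences were 1.17 ± 1.06 (SE) in TC/AEW, 0.21 ± 1.06 in TC/AVE and -1.26 ± 1.06 in TC/CP, with adjusted p of 1.00, 1.00 and 0.998 by limma. None of these exceeded the spread between TC-71 samples.

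Against the TC-71 sample of the same year mark, TXNIP was lower in all 3 lines, by -0.47 in TC/AEW (1.38-fold), -1.44 in TC/AVE (2.71-fold) and -0.27 in TC/CP (1.20-fold). The 2 arrays of each line gave nearly the same value (-0.51 and -0.43, -1.43 and -1.44, -0.23 and -0.31). The direction of the TC/AEW and TC/AVE values thus turns with the choice of TC-71 sample. These values set 1 sample against 1, with TC-71 sample 2 shared by TC/AEW and TC/AVE, and have no replicate check. In TC/AVE the difference was larger than in 98.6% of all genes. The other TXNIP probe sets gave -0.43 and -0.40 in TC/AEW, -1.44 and -1.53 in TC/AVE and -0.46 and -0.48 in TC/CP.

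CCNG2 (chromosome 4, 77157207 to 77170060) encodes cyclin G2, an atypical cyclin that restrains the cell cycle and that FOXO factors induce. It stood at 6.37, 8.58 and 6.74 in TC-71 samples 1, 2 and 3, at 8.17 and 8.26 on the TC/AEW arrays, at 8.21 and 8.29 on the TC/AVE arrays and at 5.98 and 5.65 on the TC/CP arrays. The 3 samples of the second year mark again formed the high group, with no overlap, and TC/CP the low end. The range over TC-71 samples was 4.63-fold, with an SD of 1.18, larger than in 99.8% of all genes. Against the TC-71 mean (7.23 ± 1.18, SD, n = 3) the differences were 0.98 ± 0.89 in TC/AEW, 1.03 ± 0.89 in TC/AVE and -1.41 ± 0.89 in TC/CP, with adjusted p of 1.00, 0.969 and 0.998 by limma. Against the sample of the same year mark CCNG2 was lower in all 3 lines, by -0.37, -0.32 and -0.93. Its TC/CP difference, 1.90-fold, was larger than in 97.1% of all genes. Of 5 kept probe sets, 4 had the second year mark above all other samples and were lower in all 3 lines; the fifth stayed between 5.33 and 5.59 on every array.

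**Figure D2:**
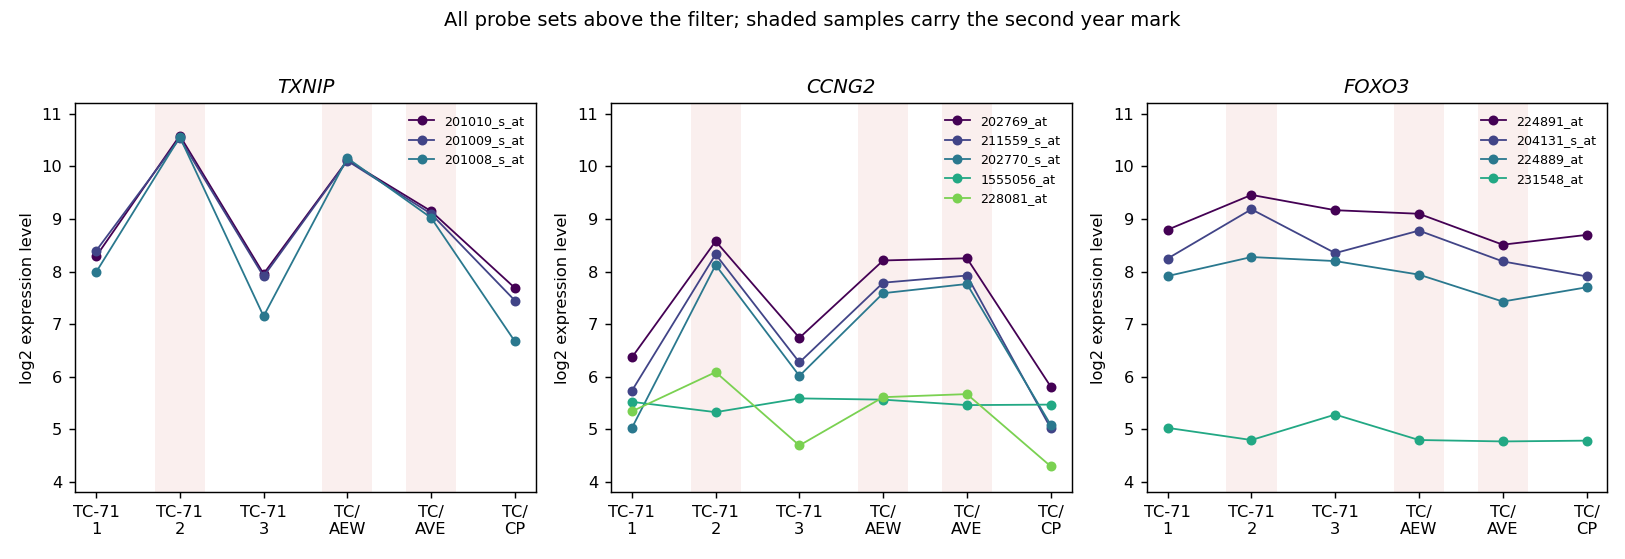
Log2 expression level of every kept probe set of TXNIP, CCNG2 and FOXO3 in the 6 samples (mean of 2 arrays for a line), with lines joining the values of 1 probe set and the samples of the second year mark shaded. All 3 TXNIP probe sets and 4 of 5 CCNG2 probe sets rise and fall together; 3 of 4 FOXO3 probe sets are lower in each line than in the TC-71 sample of its year mark.

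The gap between year marks was measured over all genes as the mean of the 3 samples of the second mark less the mean of the other 3, a split looked at after the values of TXNIP and CCNG2 had been seen. Over all genes 9.15% had the second mark above all other samples and 10.4% had it below, and the median size of the gap was 0.17. Among the members 3 had it above, TXNIP (gap 1.97, 3.93-fold), CCNG2 (2.04, 4.11-fold) and BCL6 (0.44, 1.36-fold), and 0 had it below. By size, CCNG2 ranked 7th and TXNIP 11th of 14172 genes, and BCL6 ranked 2060th. The second mark held 1 unselected and 2 resistant samples, and what lies behind the gap was not tested. Within that mark both TXNIP and CCNG2 were highest in unselected TC-71.

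Of 26 kept relatives and neighbours of the members, 3 had the second mark above all other samples and 4 had it below. Described next for the size of their gap are SESN2, a neighbour, and DDIT4 and KLF2, from the list of other genes reported as FOXO-induced. ARRDC4, also a neighbour, is given as a relative of TXNIP and not for its gap (0.74, with overlap between the marks). DDIT4 (REDD1), an inhibitor of mTOR that stress and FOXO induce, stood at 9.62, 12.83 and 9.93 in TC-71 samples 1, 2 and 3 and at 12.22, 11.37 and 10.66 in the lines, a gap of 2.07 that ranked 5th. SESN2, the sestrin that senses leucine for mTOR control, stood at 7.65, 10.77 and 8.18 in TC-71 and at 10.13, 9.22 and 8.50 in the lines, a gap of 1.93 that ranked 13th. KLF2, a zinc-finger factor of quiescent cells, stood at 6.15, 7.93 and 6.94 in TC-71 and at 8.74, 8.60 and 6.57 in the lines, a gap of 1.86 that ranked 15th. DDIT4 and SESN2 were highest in TC-71 sample 2, like TXNIP, whereas KLF2 was highest in TC/AEW. DDIT4 and SESN2 were lower in TC/AEW (-0.61 and -0.64) and TC/AVE (-1.46 and -1.55) than in that sample and higher in TC/CP (0.73 and 0.32) than in TC-71 sample 3. ARRDC4, the arrestin relative that glucose regulates along with TXNIP, stood at 4.85, 6.39 and 4.82 in TC-71 and at 5.94, 4.16 and 4.59 in the lines. It was high in TC-71 sample 2 and TC/AEW but at its lowest in TC/AVE, where it was -2.23 from TC-71 sample 2.

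**Figure D3:**
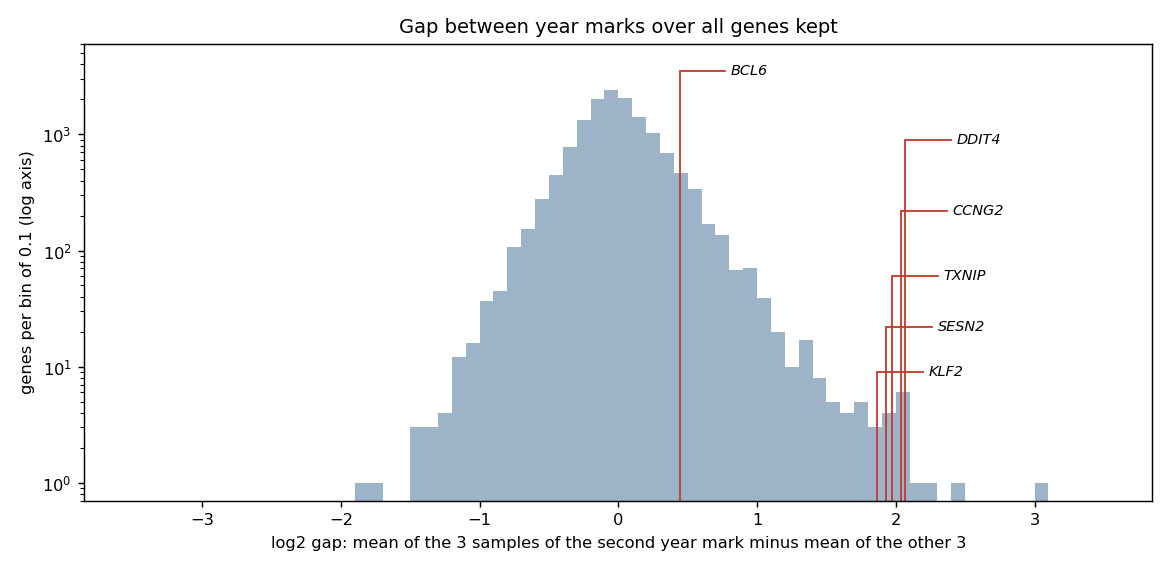
Number of genes (log axis) by the log2 gap between the mean of the 3 samples of the second year mark and the mean of the other 3, in bins of 0.1 over 14172 genes, with the gaps of BCL6, KLF2, SESN2, TXNIP, CCNG2 and DDIT4 as red lines whose heights carry no value. The gaps of KLF2, SESN2, TXNIP, CCNG2 and DDIT4 lie between 1.86 and 2.07, at the far right of a distribution with a median size of 0.17.

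The FOXO factors themselves moved less. FOXO3 (chromosome 6, 108559825 to 108684774), a factor of stress and survival responses, stood at 8.80, 9.46 and 9.17 in TC-71 samples 1, 2 and 3, at 9.09 and 9.11 on the TC/AEW arrays, at 8.51 and 8.52 on the TC/AVE arrays and at 8.71 and 8.69 on the TC/CP arrays. TC/AVE and TC/CP lay below all 3 TC-71 samples and TC/AEW lay among them. Against the TC-71 mean (9.14 ± 0.33, SD, n = 3) the differences were -0.04 ± 0.31 in TC/AEW, -0.63 ± 0.31 in TC/AVE and -0.44 ± 0.31 in TC/CP, and -0.37 ± 0.22 in the lines in common, with adjusted p of 1.00, 0.780, 0.998 and 0.732 by limma. Against the sample of the same year mark FOXO3 was lower in all 3 lines, by -0.36, -0.95 (1.93-fold) and -0.47, and the TC/AVE difference was larger than in 95.3% of all genes. Of its 4 kept probe sets, 3 were lower in all 3 lines, and the fourth was dim (4.69 to 5.28). The 3 probe sets shared with the copy FOXO3B were also lower in all 3 lines, by -0.04 to -0.45 in TC/AEW, -0.19 to -1.03 in TC/AVE and -0.34 to -0.73 in TC/CP; they cannot tell FOXO3 from its copy.

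FOXO1 (chromosome 13, 40555667 to 40666641), the factor best known for insulin-controlled glucose metabolism, stood at 7.36, 7.59 and 8.01 in TC-71 samples 1, 2 and 3, at 7.14 and 7.36 on the TC/AEW arrays, at 7.83 and 7.94 on the TC/AVE arrays and at 7.50 and 7.49 on the TC/CP arrays. TC/AEW had the lowest mean (7.25) and TC-71 sample 3 the highest value, and all other samples lay between them. The differences from the TC-71 mean (7.65 ± 0.33, SD, n = 3) were -0.40 ± 0.31, 0.24 ± 0.31 and -0.16 ± 0.31 in the lines. By year mark they were -0.34, 0.30 and -0.51. A second kept probe set placed TC-71 sample 1 highest (7.29 against 5.81 to 6.42 elsewhere), where the main probe set placed it near the low end. On the second probe set TC/AEW (5.97) was above TC-71 sample 2 (5.92) and TC/CP (5.82), and its difference by year mark was 0.04. Neither the order of the TC-71 samples nor the low place of TC/AEW was thus settled for FOXO1.

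FOXO4 (chromosome X, 71095851 to 71103532), the third AKT-controlled factor, stood at 6.81, 6.16 and 6.16 in TC-71 and at 6.02, 6.25 and 5.95 in the lines. The 2 arrays of a line differed by up to 0.47, and the arrays of the 3 lines overlapped, so the lines cannot be ordered. FOXO6, the relative outside the set, stood at 8.40 to 9.06. Its probe set is of the _x_at type, and whether it reads FOXO6 alone was not tested.

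**Figure D4:**
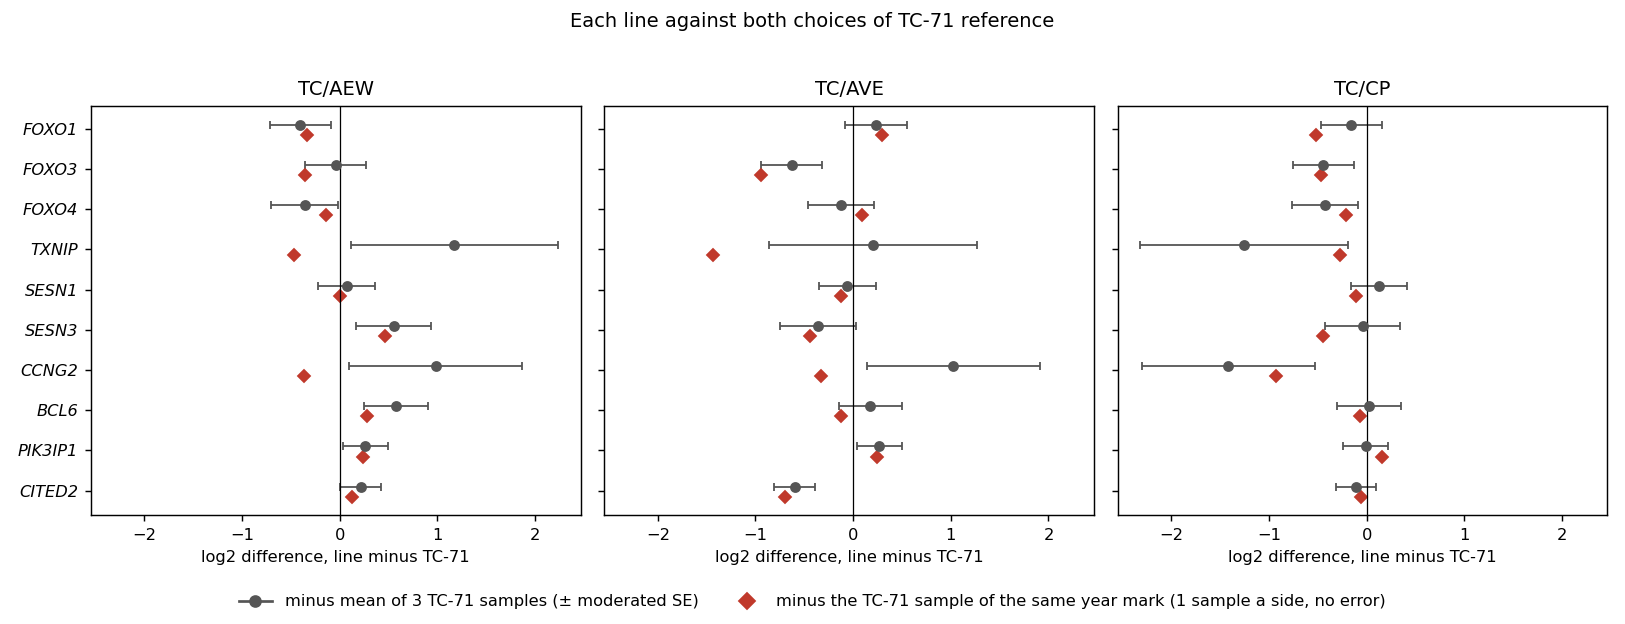
Log2 difference of each gene between a resistant line and TC-71, as the difference from the mean of 3 TC-71 samples (grey, with the moderated SE) and from the TC-71 sample of the same year mark (red, 1 sample a side and so no error). For TXNIP and CCNG2 in TC/AEW and TC/AVE the grey and red points lie on opposite sides of 0; for FOXO3 all red points lie below 0.

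Sestrins bind GATOR2 and lower mTORC1 activity, and they limit oxidative damage. SESN1 (chromosome 6, 108984309 to 109094846), also a target of p53, had the narrowest differences of the set. It stood at 6.89, 7.27 and 7.45 in TC-71 and at 7.28, 7.15 and 7.33 in the lines, each within the TC-71 range. SESN3 (chromosome 11, 95165513 to 95232475), the sestrin most tied to FOXO, was dim, with 6 of its 7 probe sets under the filter. Its main probe set read 4.41, 4.99 and 5.31 in TC-71 and 5.46, 4.54 and 4.86 in the lines, close to the filter level. The arrays of TC/AEW (5.65 and 5.26) were above those of TC/AVE (4.53 and 4.56). SESN1 and SESN3 thus did not share the gap that SESN2 had between year marks.

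PIK3IP1 (chromosome 22, 31281593 to 31292534), a transmembrane protein that binds and restrains PI3K, was the only member higher than the same-year TC-71 sample in all 3 lines. It stood at 6.52, 6.40 and 6.20 in TC-71, at 6.60 and 6.67 on the TC/AEW arrays, at 6.60 and 6.69 on the TC/AVE arrays and at 6.28 and 6.45 on the TC/CP arrays. The same-year differences were 0.24, 0.24 and 0.16, not far from the median size over all genes (0.17, 0.21 and 0.16), and the second kept probe set gave -0.12 in TC/CP. From the TC-71 mean the differences were 0.26, 0.27 and -0.01, so the direction in TC/CP turns with the reference. Over all genes the share above the same-year sample in each line was 20.8%, and the share below was 21.1%. Of the members 3 were lower in all 3 lines (TXNIP, CCNG2 and FOXO3).

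BCL6 (chromosome 3, 187721377 to 187745468), a zinc-finger repressor that FOXO factors induce, stood at 8.14, 8.83 and 8.62 in TC-71, at 9.06 and 9.16 on the TC/AEW arrays, at 8.72 and 8.70 on the TC/AVE arrays and at 8.63 and 8.49 on the TC/CP arrays. TC/AEW was above every other sample, by 0.58 ± 0.33 over the TC-71 mean (8.53 ± 0.35, SD, n = 3, adjusted p = 1.00 by limma) and by 0.28 over TC-71 sample 2. TC/AVE and TC/CP lay within the TC-71 range. These placements are those of the main probe set. The brighter of the other kept probe sets put the TC/AVE mean (7.67) above all TC-71 samples (7.11, 7.57 and 6.83). Its TC/AVE array 2 (7.55) lay just under TC-71 sample 2. On it TC/CP (6.62) lay below all TC-71 samples and TC/AEW (8.11) above every other sample. The dimmer had TC/AEW and TC/AVE level at 6.70, above all TC-71 samples (6.08, 6.65 and 6.27), and TC/CP (6.35) among them.

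CITED2 (chromosome 6, 139371807 to 139374648) encodes a coactivator partner that competes with HIF-1 for p300. It stood at 11.37, 11.51 and 11.36 in TC-71, at 11.76 and 11.50 on the TC/AEW arrays, at 10.79 and 10.84 on the TC/AVE arrays and at 11.37 and 11.24 on the TC/CP arrays. The TC/AVE arrays lay below every other array. In TC/AVE the difference from the TC-71 mean (11.42 ± 0.08, SD, n = 3) was -0.60 ± 0.21 (unadjusted p = 0.0352, adjusted p = 0.647 by limma), and from TC-71 sample 2 it was -0.69 (1.62-fold). This was the only member at an unadjusted p under 0.05 in a single line. On this main probe set the SD over TC-71 was smaller than in most genes (percentile 11.9). The second bright probe set gave -0.79 in TC/AVE from TC-71 sample 2. Its TC-71 samples spread more widely, at 11.64, 11.58 and 11.04, with TC/AVE at 10.79. In both bright probe sets the TC/CP mean (11.31 and 10.92) also lay below all 3 TC-71 samples. The third kept probe set was dim (5.04 to 5.68) and gave -0.09 in TC/AVE from TC-71 sample 2.

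A line's 2 arrays both lay beyond all 3 TC-71 samples for 2 members in TC/AEW (BCL6 and PIK3IP1, both above), 3 in TC/AVE (PIK3IP1 above, FOXO3 and CITED2 below) and 3 in TC/CP (FOXO3, TXNIP and CCNG2, all below). Over all genes these shares were 29.8%, 39.4% and 38.2%, so the members' counts were near or under the background. In the lines in common 0 members had all 6 line arrays beyond TC-71, against 9.53% of all genes. TC/AEW and TC/AVE share the second year mark. Between them TC/AEW was higher in TXNIP (0.97), SESN3 (0.91), CITED2 (0.82), FOXO3 (0.59) and BCL6 (0.40) and lower in FOXO1 (-0.64). These are differences of 1 sample against 1, with no test. The differences were smaller in FOXO4 (-0.23), SESN1 (0.13), CCNG2 (-0.04) and PIK3IP1 (-0.01), where the arrays of these lines overlapped. By size, the differences without overlap were larger than in 83.9% (BCL6) to 97.4% (TXNIP) of all genes. Those with overlap were larger than in 3.15% (PIK3IP1) to 66.2% (FOXO4). How many of all genes had no such overlap was not counted, so the split is not read as a result about the members.

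The rest of the pathway was described from lists. None of their genes passed the threshold in any comparison. Upstream of FOXO, 15 of 20 listed genes were kept, of which 6, 8, 7 and 8 were higher in the single lines and then the lines in common, with medians of -0.13, 0.11, -0.02 and 0.03; the median over all genes lay between -0.02 and 0.00. The PI3K catalytic subunits PIK3CB (0.75 ± 0.21) and PIK3CD (0.71 ± 0.16) had the largest differences in the lines in common, with adjusted p of 0.397 and 0.310 by limma. PIK3CD stood at 6.07, 6.26 and 6.13 in TC-71 and at 7.11, 6.85 and 6.62 in the lines, without overlap. It was named for the size of its difference, so the lack of overlap adds no separate support. Over all genes 9.53% had all 6 line arrays beyond TC-71. IRS2, the adaptor that FOXO induces, stood at 12.08, 11.92 and 12.05 in TC-71 and at 11.86, 11.66 and 11.17 in the lines. INSR, the insulin receptor and also a FOXO target, stood at 5.76, 6.47 and 6.29 in TC-71 and at 6.66, 7.19 and 6.0 in the lines. The receptor IGF1R, target of all the agents, was at 9.25, 9.40 and 9.26 and at 9.18, 9.58 and 8.99. AKT1 was at 9.69, 8.94 and 9.27 and at 8.90, 9.01 and 9.05, and AKT2 at 8.33, 7.69 and 8.03 and at 7.81, 8.39 and 8.07.

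Among 29 regulators and partners of FOXO proteins, all kept, 14, 13, 17 and 11 were higher in the single lines and then the lines in common. Largest in the lines in common were the acetyltransferase KAT2B (0.58 ± 0.31), the kinase IKBKB (-0.42 ± 0.15) and SKP2 (0.37 ± 0.13), which targets FOXO1 for degradation. SKP2 stood at 11.56, 11.36 and 11.65 in TC-71 and at 11.87, 11.84 and 11.97 in the lines, without overlap (adjusted p = 0.521 by limma). Like PIK3CD it was named for the size of its difference, and it was read on a probe set of the _x_at type.

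Of 39 other genes reported as FOXO-induced, 33 were kept, and 23, 19, 13 and 18 were higher in the single lines and then the lines in common, with medians of 0.18, 0.06, -0.07 and 0.02. In 7 of the 33 the second year mark stood above all other samples (PMAIP1, CAT, KLF2, KLF6, BNIP3L, DDIT4 and INSR) and in 1 below. Over all genes the shares were 9.15% above and 10.4% below, and the count of the list was not tested against them. The cell cycle inhibitor CDKN1B, a classic FOXO target, stood at 9.23, 10.31 and 9.89 in TC-71 and at 9.55, 9.87 and 9.31 in the lines. It was lower than the same-year sample in all 3 (-0.76, -0.44 and -0.59), but from the TC-71 mean it was -0.26, 0.06 and -0.50. Of the 33 genes, 9 were lower than the same-year sample in all 3 lines and 4 were higher. Over all genes these shares were 21.1% and 20.8%. The death gene BCL2L11 stood at 7.26, 6.59 and 6.96 in TC-71 and at 6.96, 7.03 and 6.81 in the lines. GADD45A was highest in TC/CP (9.41 against 8.01 to 8.86 elsewhere), unlike TXNIP and CCNG2. CCND1 and CCND2, D cyclins that FOXO factors repress, stood at 11.76, 10.99 and 11.88 (CCND1) and 4.97, 5.96 and 5.45 (CCND2) in TC-71. CCND1 was at 11.40, 11.89 and 12.27 in the lines and was higher than the same-year sample in all 3, by 0.41, 0.90 and 0.40. From the TC-71 mean it was -0.14, 0.35 and 0.73. Of the 6 repressed genes, 2 were higher than the same-year sample in all 3 lines and 1 was lower. CCND2 was at 8.82 in TC/AEW and under 5 in TC/AVE (4.72) and TC/CP (4.95). MYC, also in the list of 6 repressed genes, had 12.37, 12.46 and 12.21 in TC-71 and 12.96, 12.73 and 12.62 in the lines.

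Among 26 kept relatives and neighbours of the members, 9, 11, 14 and 11 were higher in the single lines and then the lines in common. CCNG1, the cyclin paralogous to CCNG2, stood at 11.24, 11.64 and 11.29 in TC-71 and at 10.88, 10.99 and 10.61 in the lines, below all TC-71 samples (-0.56 ± 0.17, adjusted p = 0.434 by limma). CCNG1 showed no gap between year marks (0.12). TFAP2A, whose coactivator is CITED2, was lowest in TC/CP (7.85 against 8.32 to 9.30 elsewhere). MLXIP, the glucose-sensing factor that drives TXNIP, stood at 8.95, 8.21 and 9.08 in TC-71 and at 8.65, 8.27 and 8.74 in the lines, with the second year mark below all other samples, the reverse of TXNIP. Of 15 proliferation genes, 7, 9, 5 and 6 were higher. TOP2A and CCNB2 had the second mark above the rest and 4 had it below, against 9.15% and 10.4% of all genes. The part of proliferation in the TXNIP and CCNG2 levels was not tested.

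The genes whose levels ran most like a member's over the 6 samples were named as a description. Over 6 samples, 151 genes (1.07%) had a Pearson correlation over 0.9 with TXNIP and 206 (1.45%) with CCNG2. Nearest to TXNIP were MDFI (0.995), PAX9 (0.990) and ATF4 (0.988), the last a transcription factor of the amino acid response, at 12.67, 13.19 and 12.54 in TC-71 and 12.99, 12.81 and 12.55 in the lines. Nearest to CCNG2 were CLIC4 (0.994), CHMP1B (0.992) and TOLLIP (0.990), and nearest to FOXO3 were FRAT1 (0.988), DACH2 (0.987) and COMMD4 (0.987). BCL6 ran with PHYH (0.993), GEM (0.992) and NUDT18 (0.986), and CITED2 with PHYHD1 (0.990), CPT1C (0.984) and ZNF561-AS1 (0.984). FOXO1 ran with GSK3B (0.986), SESN1 with APAF1 (0.998), SESN3 with LINC01144 (0.991) and PIK3IP1 with LOC730098 (0.987). For FOXO4 the first was PRSS3P2 (0.997), and 709 genes (5.00%) passed 0.9; its pattern has a single high sample, TC-71 sample 1.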

How the data were processed

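The 6 samples were read on 9 arrays (Affymetrix HG-U133 Plus 2). The authors deposited log2 expression values per probe set, made by RMA (affy), per the submitters' processing notes; versions are not given in the sources used here. Control probe sets (62 of 54675) were left out. Of the rest, 41091 carried 1 gene symbol, 1801 several and 11721 none, by the platform annotation; 41037 of the single-symbol ones were found by gene identifier in RefSeq (GRCh38.p14), with 0 symbols updated. The probe set of a gene and the filter are given above. Each comparison used limma 3.58.1 (R 4.3.3) and its two-sided moderated test; p-values were adjusted by Benjamini-Hochberg over 14172 genes. The scripts were tested on simulated data. A fit with 4 groups (2 residual degrees of freedom, all from TC-71) served the single lines, each assumed to vary like TC-71, and a fit with 2 groups (4 residual) the lines in common. The design text calls the TC-71 samples biological replicates; each line gives 1 sample, so its own spread between cultures is not in the p-values. Errors of differences are moderated SE. The number of arrays limits precision. Same-year differences, year-mark gaps and percentiles over genes are descriptions without a test. The members and gene lists were chosen with earlier results of these data known. Named were the members, a fixed set of relatives and best known targets, up to 3 genes per list with the largest difference in the lines in common, and the genes most correlated with each member; PMAIP1, CAT, KLF6, BNIP3L, TOP2A and CCNB2 were named after their values were seen. Alternatives were the probe set rule, filter, centring, intensity trend, single arrays, arrays as samples, the year mark as a block and leaving out samples. List genes without a probe set of their own in the annotation used were not analysed here.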

Additional observations from a re-analysis of the deposited data

Results flagged for a closer look

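On the main probe set the mean CITED2 level in TC/AEW (11.63) was above all TC-71 samples. The means in TC/AVE (10.82) and TC/CP (11.31) were below all of them, and none of these differences passed the threshold. On the second bright probe set TC/AEW (11.64) was level with TC-71 sample 1 (11.64), and its array 2 (11.61) lay below that sample. On the third, dim probe set TC/AEW (5.61) lay below TC-71 samples 1 and 3 (both 5.68). The values that follow are those of the main probe set. The difference between TC/AEW and TC/AVE was 0.82 on the log2 scale. That difference was not tested, and 1 of the 2 TC/AEW arrays (11.50) lay just under TC-71 sample 2 (11.51). The TC/CP arrays also overlapped TC-71, with array 1 at 11.37, above TC-71 sample 3 (11.36).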

How the results depend on the processing

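Of 516 alternative values of the members, 42 turned direction and 2 passed the threshold, both with the 9 arrays counted as samples, which treats technical arrays as replicates. That setting called 545 genes in TC/AEW, 1871 in TC/AVE, 1013 in TC/CP and 238 in the lines in common, and 2 members in TC/AVE, FOXO3 (adjusted p = 0.0473 by limma) and CITED2 (0.0137). In TC/AVE the count of genes was 6 with the mean over probe sets and 29 with median centring. In the lines in common it was 6 with the mean over probe sets, 0 with no filter, 6 with the filter at 6, 8 with median centring, 6 with an intensity trend, 5 with array 1 of each line, 0 with the year mark as a block and 0 in every fit that left out a sample. With array 2 of each line 5 members, not 3, were lower than the same-year sample in all lines, and between 0 and 1 members had the second year mark below the rest when a sample was left out, 1 without TC-71 sample 1.

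With the year mark as a block, the common differences were -0.66 for TXNIP, -0.59 for CCNG2, -0.19 for SESN3 and -0.085 for SESN1, each turned in direction, and no member passed (adjusted p = 0.404 for CCNG2 and 0.581 for TXNIP by limma). Median centring gave -0.0078 for TXNIP and -0.0020 for SESN1 in common and -0.066 for BCL6 in TC/CP, where the mean over probe sets gave -0.17. Array 2 gave 0.022 for FOXO4 in TC/AVE, 0.087 for SESN3, -0.043 for BCL6 and 0.078 for PIK3IP1 in TC/CP, and -0.017 for SESN1 in common; array 1 gave 0.048 for SESN1 in TC/AVE. The cause was not tested.

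Leaving out a sample turned these directions. In TC/AEW FOXO3 ran from -0.21 to 0.12 and SESN1 from -0.085 to 0.19. In TC/AVE FOXO4 ran from -0.23 to 0.088, TXNIP from -0.29 to 1.03, SESN1 from -0.21 to 0.063 and BCL6 from -0.017 to 0.33. In TC/CP FOXO1 ran from -0.30 to 0.023, SESN1 from -0.027 to 0.25, SESN3 from -0.29 to 0.16, BCL6 from -0.17 to 0.18 and PIK3IP1 from -0.097 to 0.063. In common FOXO1 ran from -0.28 to 0.072, TXNIP from -0.52 to 0.86, SESN1 from -0.11 to 0.17, SESN3 from -0.20 to 0.25, CCNG2 from -0.23 to 1.00 and CITED2 from -0.35 to 0.054. No paired analysis was possible because the replicate numbers of a line mark technical arrays of 1 sample and pair nothing with the TC-71 samples; this concerns the numbers only, and the match by year mark is the block given above. Dim probe sets, SESN3 above all, lie near background.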
